A study of Mus musculus with 9 samples.

Results

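Solute carriers are the Slc genes, whose products move nutrients, ions, metals and metabolites across the plasma membrane and the membranes of organelles. They were followed here in TtT/GF cells, a mouse line derived from folliculostellate cells, the non-hormonal support cells of the anterior pituitary. All probe sets of the Affymetrix MG_U74A v2 array whose only annotated gene symbol starts with Slc and a number were taken, and 1 Slc gene was left out by that rule. This gave 184 probe sets for 150 genes, out of 10833 probe sets and 8251 genes with a single symbol. The pattern also took Slc9a3r1, Slc9a3r2 and Slc4a1ap, which carry the name of a carrier they bind and are not carriers themselves. Cultures were left untreated, or were given 10 µM NECA for 30 min or for 120 min, with 3 replicate cultures and 3 arrays in each group. NECA, or 5'-N-ethylcarboxamidoadenosine, is a stable relative of adenosine and an agonist of its receptors. All cultures were kept in medium with heat-inactivated fetal bovine serum. The labels name no vehicle and no untreated culture harvested at the 2 treatment times. The cells are 1 cell line, so each value describes that line.

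As background, a carrier family is numbered by sequence relatedness, and members of one family often share the kind of solute they move. Cells set their uptake of amino acids, lactate, vitamins and metals partly through the transcription of such genes and partly by moving the proteins to and from the membrane, which an array does not see. Adenosine receptors that raise cyclic AMP act on genes through CREB, a factor that binds the cyclic AMP response element (CRE). Folliculostellate cells surround the hormone cells, are coupled by gap junctions and supply them with growth factors and cytokines.

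Signals are MAS5 values on a linear scale. The 2% trimmed mean of each array was between 100.056 and 100.065. Scaling to about 100 was read from these values, and the labels do not give a target. Testing required a signal above 20.5 (the 40th percentile of all values) on at least 3 of the 9 arrays. Of the 184 Slc probe sets, 116 for 102 genes met this, 89 of them on all 9 arrays, and 68 did not. For 48 genes no probe set was tested, and 60 probe sets were above 20.5 on no array. A change is a difference of mean log2(signal + 7.93) with its standard error (SE), and p-values are from limma, adjusted over all 7851 tested probe sets of the array, with a threshold of 0.05. The offset of 7.93 makes a change of a dim gene look smaller than it is. Each group had 3 arrays, which limits the precision: the median SE of a change at 120 min was 0.16 among the tested Slc probe sets.

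Arrays of one group correlated at 0.947 to 0.978 over all tested probe sets. The ratio of the 3' to the 5' control probe set for Gapdh, a sign of RNA integrity, was 0.995 ± 0.028 (SD, n = 3) in untreated arrays, 0.921 ± 0.038 after 30 min and 0.947 ± 0.029 after 120 min, and the untreated and 30 min arrays did not overlap. Among 13 folliculostellate markers on the array, 9 were above 20.5 on all 9 arrays, but the probe sets for Vim, Sox2 and Fst were not tested. Their summed signal ran from 4675 to 5085 in untreated, 4676 to 5062 in 30 min and 5169 to 5674 in 120 min arrays. Summed hormone-cell markers, 5 of 11 above 20.5 on all arrays, ran from 427 to 454, 335 to 387 and 300 to 432 in the same order. Summed macrophage and leukocyte markers, 3 of 11 above 20.5 on all arrays, ran from 864 to 908, 931 to 1103 and 925 to 1195, with Ptprc and Adgre1 above 20.5 on none. Summed endothelial markers, 1 of 9 on all arrays, ran from 571 to 714, 613 to 772 and 587 to 677. The folliculostellate sum rests mainly on Anxa1 and Gja1, with means of 1945 and 1366 over all arrays. The leukocyte sum rests on Cd14 and Cd68 (443 and 430), and the endothelial sum on Eng (589). Among tested folliculostellate markers, Gja1 (1135 untreated, 1710 at 120 min), Vegfa, Cd9, Fn1 and Clu had higher means at 120 min than untreated. Anxa1, Aldh1a1, S100b, Gfap and Krt18 had lower means. The part of these marker differences in the Slc results was not tested.

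After 120 min of NECA, 4 Slc genes rose and 3 fell against untreated cells. Slc23a2, a vitamin C carrier, Slc25a25, a mitochondrial ATP-Mg and phosphate carrier, Slc16a1, a lactate carrier, and Slc9a3r1, a carrier-binding scaffold, rose by 0.72 to 1.00 on the log2 scale. Slc38a2, an amino acid carrier, Slc30a4, a zinc carrier, and Slc35g3, which by its symbol belongs to the nucleotide sugar carrier family, fell by 0.74 to 1.24. Among all tested probe sets 1.83% were called higher and 1.54% lower at 120 min, against 3.45% and 2.59% of the 116 Slc probe sets, which is 4 and 3 probe sets. The other 109 did not pass. The median change was -0.064 over the Slc probe sets and -0.043 over all tested probe sets. In whole-culture RNA, fewer cells of a kind and less RNA per cell cannot be told apart. After 30 min 1 Slc gene passed, Slc25a25, where 0.357% of all tested probe sets were called higher and 0% lower.

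**Figure D1:**
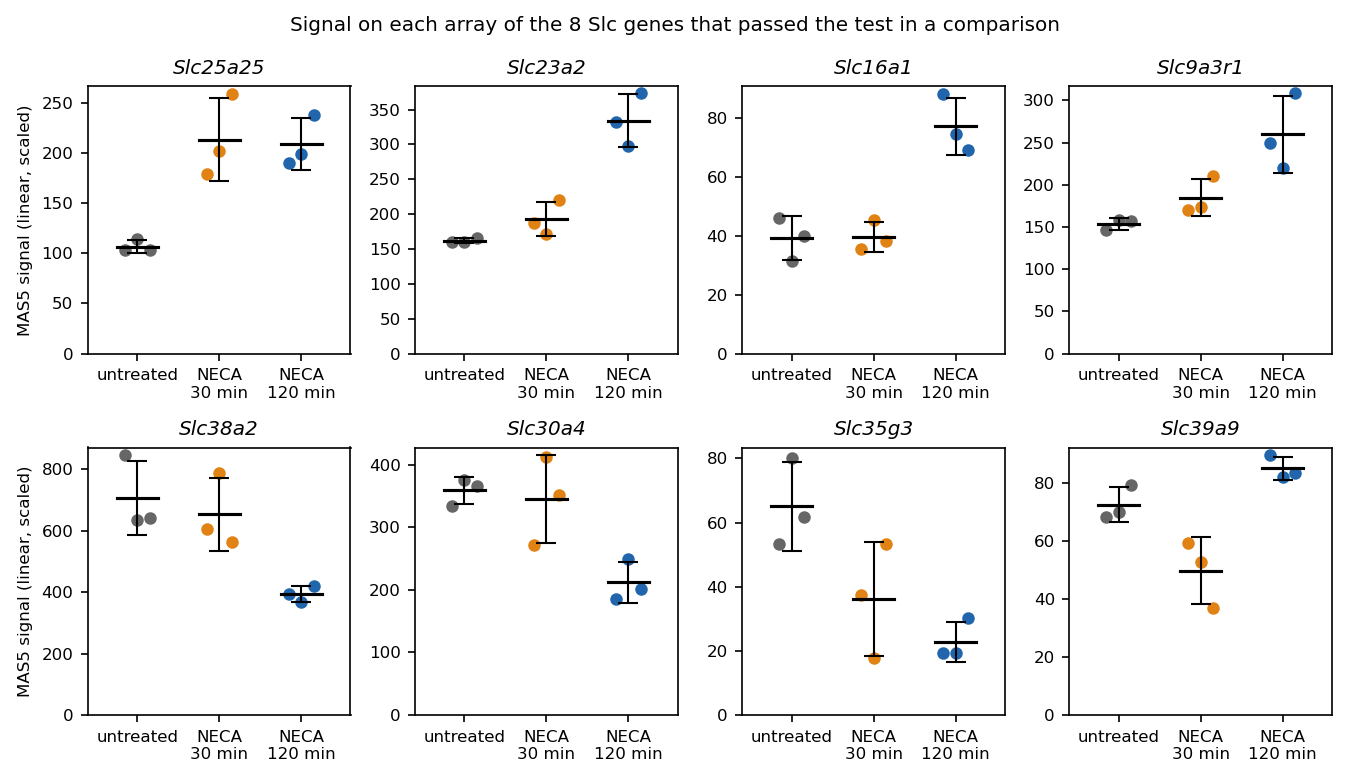
MAS5 signal (linear scale, from 0) of the 8 Slc genes that passed the test in any comparison, with 1 point per array, a long bar for the group mean and short bars for 1 SD (n = 3). All 3 arrays at 120 min lay above the untreated arrays for Slc25a25, Slc23a2, Slc16a1, Slc9a3r1 and Slc39a9, and below them for Slc38a2, Slc30a4 and Slc35g3.

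Slc23a2 encodes a sodium-coupled carrier that brings ascorbate, the reduced form of vitamin C, into cells. Its probe set read 160, 160 and 166 in untreated cells, 187, 172 and 220 after 30 min and 332, 297 and 373 after 120 min. All arrays at 30 min lay above all untreated arrays, and all arrays at 120 min lay above both other groups. The change at 120 min was 1.00 ± 0.14 (SE), 2.00-fold on the log2(signal + 7.93) scale, with a limma adjusted p of 0.00104. At 30 min it was 0.24 ± 0.14, with an adjusted p of 0.625. Between the 2 times it was 0.77 ± 0.14, with an adjusted p of 0.00785. In all 18 alternative analyses both calls at 120 min remained, with adjusted p of 0.00049 to 0.0199 against untreated cells and 0.00423 to 0.0487 against 30 min. The related gene Slc23a3 had 2 tested probe sets, with changes at 120 min of -0.20 and 0.21 that did not pass, and Slc23a1 was not above 20.5 on any array.

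Slc25a25 encodes a calcium-regulated carrier of the inner mitochondrial membrane that exchanges ATP-Mg for phosphate. Its probe set read 103, 114 and 103 in untreated cells, 179, 202 and 259 after 30 min and 190, 199 and 238 after 120 min. All 6 treated arrays were above all untreated arrays, and the groups at 30 and 120 min overlapped. The change was 0.94 ± 0.15 at 30 min, 1.91-fold on that scale, with an adjusted p of 0.0207, and 0.92 ± 0.15 at 120 min, with an adjusted p of 0.00506. Between the times it was -0.02 ± 0.15, with an adjusted p of 0.979. Leaving out any 1 untreated array ended the call at 30 min, with changes of 0.91 to 0.98 and adjusted p of 0.0893 to 0.132. With the Gapdh ratio as a covariate the changes were 0.71 (adjusted p 0.996) at 30 min and 0.77 (0.0736) at 120 min, and over the 18 alternatives the adjusted p ran from 0.0182 to 0.996 and from 0.00141 to 0.0736.

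The promoters of Slc25a25, Slc23a2 and Slc38a2 are shown because they were the 3 called genes with CRE letters near an annotated start. The windows, from RefSeq on GRCm38.p6, run from 250 bases before to 50 after a transcript start, are written 5′ to 3′ on the gene's strand, and lie on the minus strand of chr2:32424017-32424316, chr2:132145271-132145570 and chr15:96699679-96699978. Capitals mark the CRE, TGACGTCA, or its core, TGACG, searched on both strands.
Slc25a25: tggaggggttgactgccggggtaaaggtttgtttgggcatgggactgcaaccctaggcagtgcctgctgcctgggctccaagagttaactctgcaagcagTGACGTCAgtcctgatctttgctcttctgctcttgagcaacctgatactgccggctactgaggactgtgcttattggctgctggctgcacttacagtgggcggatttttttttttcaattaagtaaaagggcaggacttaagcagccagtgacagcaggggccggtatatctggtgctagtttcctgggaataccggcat
Slc23a2: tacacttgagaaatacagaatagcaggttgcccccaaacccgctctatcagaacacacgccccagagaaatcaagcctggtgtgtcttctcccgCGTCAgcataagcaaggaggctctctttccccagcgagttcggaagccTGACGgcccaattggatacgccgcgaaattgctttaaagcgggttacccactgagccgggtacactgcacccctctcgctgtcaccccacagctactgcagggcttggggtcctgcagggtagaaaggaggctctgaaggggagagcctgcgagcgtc
Slc38a2: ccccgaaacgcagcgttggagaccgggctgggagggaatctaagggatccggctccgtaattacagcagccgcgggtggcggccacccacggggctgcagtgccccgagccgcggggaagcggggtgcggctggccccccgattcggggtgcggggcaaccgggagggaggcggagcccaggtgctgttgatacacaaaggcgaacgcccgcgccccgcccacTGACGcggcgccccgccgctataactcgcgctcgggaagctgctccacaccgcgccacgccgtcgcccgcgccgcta

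In Slc25a25 the complete CRE began 150 bases before the start, in 1 of its 3 annotated windows, and it holds the core on both strands. The Slc23a2 window, 1 of 2 for the gene, had cores that began 156 and 108 bases before the start. The Slc38a2 window had 1 core, 27 bases before the start. A complete CRE was in 1.79% of all 32851 windows of this length and in 2 of the 174 windows of the 123 Slc genes with a window. The other was in Slc25a36, a mitochondrial carrier, whose changes of -0.21 at 30 min and -0.11 at 120 min did not pass. Cores were in 20.8% of all windows and in 43 of the 174 Slc windows (24.7%). By gene, a core was in 23% of all genes, in 31.7% of the 123 Slc genes and in 3 of 8 called genes (37.5%). The core TGCGCNC of the metal response element, on either strand, was in 15.4% of all windows and 21.8% of Slc windows. It was in windows of Slc30a4, Slc16a1 and Slc25a25. The E-box CACGTG was in 7.15% of all windows, in 12.6% of Slc windows and in that of Slc16a1. The median share of G and C bases was 60% in Slc windows and 52.7% in all windows. The C/EBP-ATF element TGATGCAA was in 0.895% of all windows, in 6 Slc windows (Slc17a1, Slc1a4, Slc50a1, Slc7a11 and Slc7a7) and in none of the 11 windows of the 8 called genes. These matches describe letters, and the arrays do not show which start was used.

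Slc16a1 encodes MCT1, a proton-coupled carrier of lactate, pyruvate and ketone bodies. Its probe set read 46.2, 31.4 and 40 in untreated cells, 35.4, 45.5 and 38.2 after 30 min and 88.2, 74.6 and 69.3 after 120 min. The untreated and 30 min arrays overlapped, and all arrays at 120 min were above both. The change at 120 min was 0.86 ± 0.17 against untreated cells (adjusted p 0.0125) and 0.84 ± 0.17 against 30 min (adjusted p 0.016), while at 30 min it was 0.02 ± 0.17 (adjusted p 0.965). Against untreated cells the call at 120 min ended without untreated replicate 2 (0.74, adjusted p 0.0686), without NECA 120 min replicate 1 (0.77, 0.0543) and with the Gapdh ratio as a covariate (0.73, 0.13), out of a range of 0.00435 to 0.13 over the alternatives. Against 30 min it ended without NECA 30 min replicate 1 (0.77, 0.0728) and without NECA 120 min replicate 1 (0.75, 0.0802) or 2 (0.86, 0.0581), out of a range of 0.011 to 0.0802. Bsg encodes basigin, the partner chain that takes MCT1 to the membrane, and its change at 120 min was 0.09 ± 0.13, with an adjusted p of 0.779. The related carrier Slc16a8 was at -0.31 with an adjusted p of 0.628.

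Slc9a3r1 encodes NHERF1, a PDZ-domain scaffold that links sodium-proton exchangers, phosphate carriers and receptors to the actin cytoskeleton through ezrin. Its probe set read 146, 158 and 157 in untreated cells, 170, 174 and 210 after 30 min and 250, 220 and 309 after 120 min. All arrays at 30 min were above the untreated arrays, and all at 120 min were above those at 30 min. The change was 0.72 ± 0.15 at 120 min, with an adjusted p of 0.0199, and 0.25 ± 0.15 at 30 min, with an adjusted p of 0.625. The call ended without any 1 untreated array and without NECA 120 min replicate 1 or 3, with changes of 0.59 to 0.74 and adjusted p of 0.053 to 0.101, and with the Gapdh ratio as a covariate (0.58, 0.171), out of a range of 0.0114 to 0.171. The related scaffold Slc9a3r2 was at 0.16 (adjusted p 0.74), and the exchanger Slc9a8 at -0.19 (adjusted p 0.551).

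Slc38a2 encodes SNAT2, a sodium-coupled carrier of alanine, glutamine and other small neutral amino acids. Its brightest probe set read 846, 633 and 642 in untreated cells, 606, 788 and 564 after 30 min and 393, 368 and 418 after 120 min. The untreated and 30 min arrays overlapped, and all arrays at 120 min were below both. The change was -0.82 ± 0.16 at 120 min, 1.77-fold lower on that scale, with an adjusted p of 0.0124. It was -0.12 ± 0.16 at 30 min (adjusted p 0.796) and -0.71 ± 0.16 between the times (adjusted p 0.0334). Without untreated replicate 1 the change at 120 min was -0.69 (adjusted p 0.0712) and without NECA 120 min replicate 2 it was -0.78 (0.0566), so the call ended in both, out of a range of 0.00496 to 0.0712. The call between the times ended in 11 of 18 alternatives, among them without untreated replicate 2, NECA 30 min replicate 1 or 2, or any 1 array at 120 min, with changes of -0.75 to -0.56 and adjusted p of 0.0519 to 0.139. The other 3 probe sets for Slc38a2 read at most 8.93 on any array and were not tested.

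Among the 12 tested amino acid and peptide carriers, Slc38a2 was the member that passed at 120 min, and the family's median change was -0.11. Slc38a5, a related sodium-coupled glutamine carrier, read 77.8, 81.2 and 66.1, then 58.9, 66.2 and 53.3, then 56.1, 49.0 and 39.4. Its arrays at 120 min were all below the untreated arrays, and the change of -0.57 ± 0.16 did not pass (adjusted p 0.08). Slc1a4, a neutral amino acid exchanger, read 191, 200 and 191, then 199, 194 and 210, then 165, 145 and 157. The 120 min arrays were likewise below the others, with a change of -0.30 ± 0.12 and an adjusted p of 0.234. Slc3a1, the heavy chain of the cystine carrier, read 47.6, 39.0 and 17.3, then 17.1, 20.6 and 26.2, then 19.0, 8.33 and 7.63, above 20.5 on 4 arrays. Its groups overlapped, and the change of -1.09 ± 0.32 had an adjusted p of 0.105, and of 0.0243 (change -1.43) without untreated replicate 3, out of a range of 0.0243 to 0.391.

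Slc3a2, the CD98 heavy chain that several amino acid exchangers need at the membrane, read 824, 962 and 904 untreated, 1071, 1125 and 1252 after 30 min and 1228, 920 and 1255 after 120 min. The 30 min arrays were all above the untreated arrays, and those at 120 min overlapped them. The changes of 0.35 ± 0.14 and 0.33 ± 0.14 did not pass (adjusted p 0.552 and 0.296). Slc7a5, the LAT1 light chain that pairs with it, is given although its values were known when it was chosen, and its changes were -0.07 and -0.08 (adjusted p 0.865 and 0.8). Slc7a11, the light chain of the cystine-glutamate exchanger, was above 20.5 on no array.

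Among metal carriers, Slc30a4 fell at 120 min and the other 19 tested probe sets did not pass, with a family median of 0.16. Slc30a4 encodes ZnT4, which moves zinc from the cytosol into vesicles. Its brighter probe set read 334, 376 and 366 in untreated cells, 271, 412 and 351 after 30 min and 186, 249 and 202 after 120 min. The untreated and 30 min arrays overlapped, and the arrays at 120 min were below both. The change at 120 min was -0.74 ± 0.17, with an adjusted p of 0.031, and against 30 min it was -0.67 ± 0.17, with an adjusted p of 0.058. The latter passed with the replicate block (-0.67, 0.0277) and without NECA 30 min replicate 1 (-0.82, 0.0244), out of a range of 0.0244 to 0.209. The call ended without any 1 untreated array or without NECA 120 min replicate 1 or 3, with changes of -0.79 to -0.65 and adjusted p of 0.0789 to 0.136, and with the Gapdh ratio as a covariate (-0.69, 0.166), out of a range of 0.00995 to 0.166. The second Slc30a4 probe set read at most 11.0 and was not tested.

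Slc39a9 encodes ZIP9, a carrier that brings zinc into the cytosol, and it differed between the 2 treatment times. Its probe set read 68.5, 69.9 and 79.5 in untreated cells, 59.4, 52.9 and 37.0 after 30 min and 89.7, 82.3 and 83.4 after 120 min. The arrays at 30 min were below all others, and those at 120 min were above all others. Against 30 min the change was 0.71 ± 0.16, with an adjusted p of 0.0353, while against untreated cells it was -0.50 ± 0.16 at 30 min (0.512) and 0.21 ± 0.16 at 120 min (0.55). The call between the times ended in 11 of 18 alternatives, among them without any 1 untreated array, any 1 array at 120 min or NECA 30 min replicate 3, with changes of 0.54 to 0.73 and adjusted p of 0.0526 to 0.12. Slc30a5, a zinc carrier of the early secretory pathway, read 60.2, 66.5 and 52.6, then 47.1, 42.9 and 49.8, then 45.5, 45.4 and 32.2 on its brighter probe set. Both treated groups lay below the untreated arrays, and the change of -0.47 ± 0.16 at 120 min did not pass (adjusted p 0.173). The second Slc30a5 probe set was at -0.25 (adjusted p 0.639).

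Both tested probe sets for Slc11a2, the DMT1 carrier of iron and manganese, were at 0.17 and 0.06 at 120 min, and both for Slc31a1, the copper carrier CTR1, at 0.33 and 0.14, none of which passed. In a list of other metal-responsive genes, 3 of 12 tested probe sets rose at 120 min and none fell, where 1.83% of all tested probe sets were called higher and 1.54% lower. Hmox1, the heme-degrading enzyme, rose by 1.21 ± 0.14 (adjusted p 0.00033), and the metallothioneins Mt1 and Mt2 by 0.72 ± 0.16 (0.0304) and 0.60 ± 0.13 (0.0246). Of the 12 changes 6 were above 0 and 6 below, with a median of 0.01 against -0.04 over all tested probe sets. Cp had all 120 min arrays below the untreated arrays, and its change of -0.87 ± 0.22 did not pass (adjusted p 0.053). Slc48a1, a heme carrier, read 419, 418 and 459, then 438, 354 and 399, then 400, 365 and 504, and the groups overlapped, with a change of -0.04 ± 0.14 at 120 min (adjusted p 0.914).

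**Figure D2:**
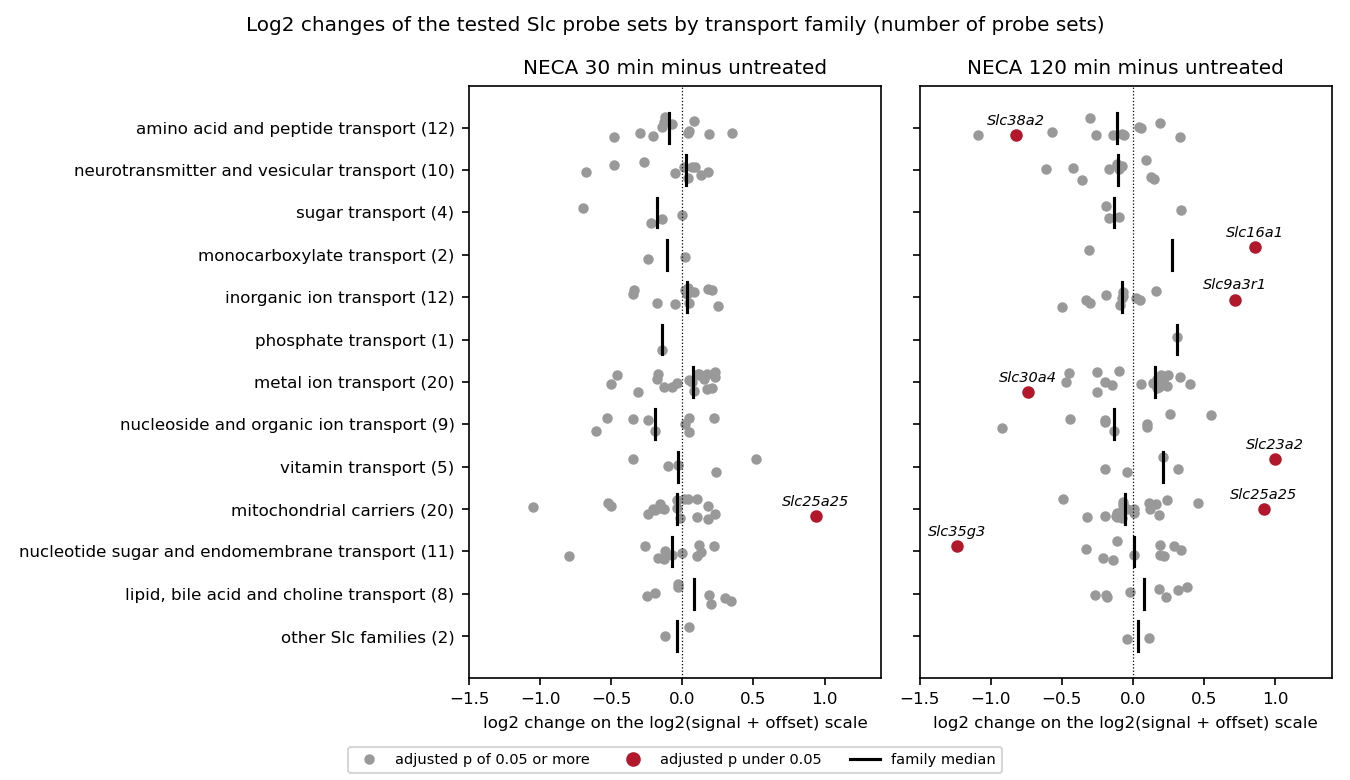
Log2 change of each tested Slc probe set (horizontal axis) by transport family (rows, with the number of tested probe sets), at 30 min on the left and 120 min on the right, with red points for an adjusted p under 0.05 and a black bar for the family median. Every family with more than 1 tested probe set has points on both sides of 0 at both times, and the 7 called genes at 120 min fall in 7 different families.

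Slc35g3 read 53.2, 80.2 and 61.6 in untreated cells, 37.3, 17.7 and 53.2 after 30 min and 19.3, 19.3 and 30.1 after 120 min. The arrays at 120 min were below all untreated arrays, and the 30 min arrays overlapped both groups. Only 6 of its 9 arrays were above 20.5. The change of -1.24 ± 0.29 at 120 min had an adjusted p of 0.0365. Leaving out any 1 untreated array or any 1 array at 120 min ended the call, with changes of -1.40 to -1.10 and adjusted p of 0.0536 to 0.174, out of a range of 0.00656 to 0.174. Of the other 10 tested probe sets for carriers of nucleotide sugars and endomembranes none passed. Slc35d1, which carries UDP-glucuronic acid and UDP-N-acetylgalactosamine into the endoplasmic reticulum, read 63.7, 58.8 and 52.1, then 61.8, 75.3 and 57.2, then 65.6, 74.2 and 88.0. All its 120 min arrays were above the untreated arrays, with a change of 0.34 ± 0.15 (adjusted p 0.325).

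Among the 20 tested probe sets of mitochondrial carriers, Slc25a25 was the one that passed at either time, and the family medians were -0.04 and -0.06. Slc25a28, a mitoferrin, which carries iron across the inner membrane, read 88.7, 100 and 93.8, then 96.0, 80.8 and 118, then 134, 145 and 120. Its arrays at 120 min were above both other groups, with a change of 0.46 ± 0.15 (adjusted p 0.152). Slc25a45 read 24.9, 26.3 and 34.2, then 14.1, 7.10 and 8.24, then 9.48, 25.4 and 21.3. Its 30 min arrays were below the untreated arrays, and the change of -1.05 ± 0.28 had an adjusted p of 0.331. Those 30 min arrays were all below 20.5, and the probe set was above it on 5 of the 9 arrays. For Slc25a51, the mitochondrial NAD carrier, the dimmer probe set read 72.7, 82.3 and 65.3, then 46.4, 46.8 and 55.1, then 68.2, 61.3 and 59.1. Those 30 min arrays were below the others, with a change of -0.50 ± 0.14 (adjusted p 0.377), but the brighter probe set for the gene was at -0.02. Slc25a4, which exchanges ADP and ATP, was at 0.18 and 0.12 at the 2 times.

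Vitamin carriers other than Slc23a2 did not pass. Slc19a1, the reduced folate carrier, read 100, 106 and 94.2, then 138, 114 and 199, then 109, 124 and 149 on its brighter probe set. Both treated groups lay above the untreated arrays, and the changes of 0.52 ± 0.19 and 0.32 ± 0.19 had adjusted p of 0.552 and 0.452. The second probe set for Slc19a1 was at -0.03 and -0.04. In the lipid, bile acid and choline families none of 8 passed. Slc10a3, which is related by sequence to bile acid carriers, read 204, 195 and 209, then 264, 239 and 274, then 253, 232 and 281. Its treated arrays were all above the untreated arrays, with changes of 0.34 ± 0.12 and 0.32 ± 0.12 (adjusted p 0.552 and 0.234).

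None of the 9 tested probe sets for carriers of nucleosides and organic ions passed at either time. Slc29a1 encodes ENT1, the equilibrative carrier through which cells take up and release adenosine, and it was chosen here with its values known. Its brighter probe set read 336, 435 and 414 in untreated cells, 511, 361 and 524 after 30 min and 451, 437 and 535 after 120 min. All arrays at 120 min were above the untreated arrays by little, the 30 min arrays overlapped them, and the changes were 0.22 ± 0.17 and 0.26 ± 0.17 (adjusted p 0.659 and 0.48). The dimmer probe set went the other way, at -0.19 and -0.44 (adjusted p 0.766 and 0.381), and Slc29a2 was not above 20.5 on any array. Slc22a23, an organic ion carrier family member, read 24.5, 24.9 and 24.8, then 24.5, 28.3 and 24.6, then 44.2, 40.9 and 34.9. Its arrays at 120 min were above both other groups, with a change of 0.55 ± 0.16 that did not pass (adjusted p 0.109), and that passed after quantile normalization (0.65, 0.0367) and without the intensity trend (0.55, 0.0465), out of a range of 0.0367 to 0.3. Slc22a2, the organic cation carrier OCT2, read 28.1, 25.8 and 21.4, then 18.6, 11.2 and 15.5, then 13.9, 3.58 and 12.9. Every treated array was below the untreated arrays and below 20.5, so the probe set was tested through the untreated arrays alone, and the change at 120 min was -0.92 ± 0.28 (adjusted p 0.123).

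**Figure D3:**
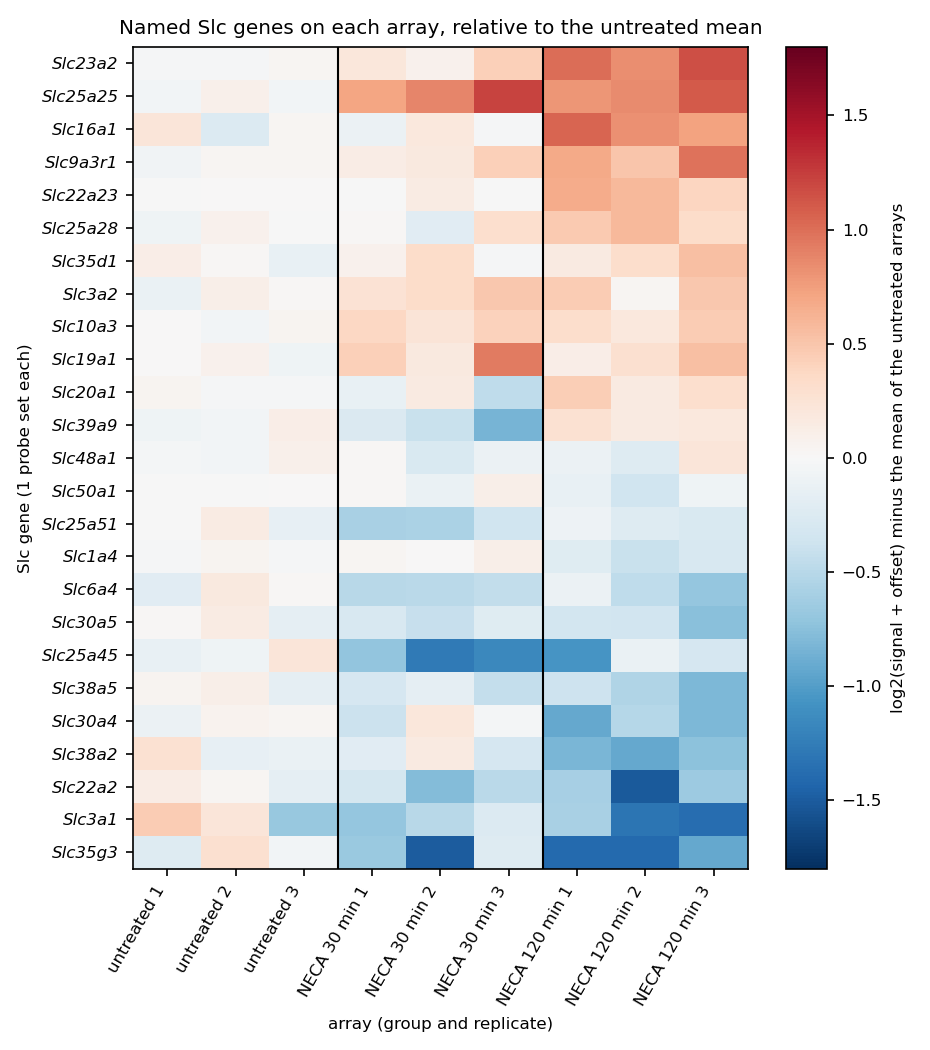
Log2(signal + offset) of 25 named Slc genes (rows, 1 probe set each) on each of the 9 arrays (columns), as the difference from the mean of the untreated arrays, from blue (lower) to red (higher). The rows of Slc25a51 and Slc6a4 are their dimmer probe sets. Slc23a2, Slc16a1 and Slc9a3r1 are red on all 3 arrays at 120 min and Slc38a2 and Slc35g3 blue, while at 30 min the row of Slc25a25 is red on all 3 arrays.

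Neurotransmitter, sugar, phosphate and inorganic ion families held no called carrier at either time, with 10, 4, 1 and 12 tested probe sets, apart from the scaffold Slc9a3r1 counted with the last. Families were assigned by Slc number, so single members, such as Slc5a6 in the sugar group, may carry other solutes. For Slc6a4, the serotonin carrier, the dimmer probe set read 41.6, 56.3 and 50, then 32.3, 32.9 and 33.9, then 45.1, 33.4 and 27.3. Those 30 min arrays were below the untreated arrays, with a change of -0.48 ± 0.18 (adjusted p 0.552), and the brighter probe set was at -0.05. Slc20a1, a sodium-phosphate carrier, read 79.6, 75.1 and 75.0, then 69.3, 86.5 and 53.4, then 107, 87.0 and 96.5. Its arrays at 120 min were above the others, with a change of 0.31 ± 0.16 (adjusted p 0.397). Slc50a1, a sugar carrier of the SWEET family, read 162, 162 and 164, then 165, 149 and 176, then 148, 125 and 153. Its arrays at 120 min were below the untreated arrays, with a change of -0.19 ± 0.13 (adjusted p 0.499).

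After 30 min, Slc25a25 was the 1 Slc probe set of 116 called, and the median change was -0.026 against -0.037 over all tested probe sets. At an unadjusted limma p under 0.05, 4 Slc probe sets were higher and 7 lower, which is 3.45% and 6.03%, against 3.87% and 4.70% of all tested probe sets. Between 30 and 120 min, 3 Slc probe sets were higher at 120 min (Slc16a1, Slc23a2 and Slc39a9) and 1 lower (Slc38a2), where 1.35% and 1.62% of all tested probe sets were called. Slc2a3, the glucose carrier GLUT3, was chosen with its values known. Its brighter probe set read 25.5, 35.2 and 19.4 untreated, 16.4, 18.0 and 6.59 after 30 min and 34.7, 43.8 and 28.5 after 120 min. It was above 20.5 on 5 of the 9 arrays. The 30 min arrays were below all others and all below 20.5, and the change between the times of 1.04 did not pass (adjusted p 0.0694). That change passed with the replicate block (1.04, 0.0256) and without NECA 30 min replicate 2 (1.20, 0.0498), out of a range of 0.0256 to 0.271. The second Slc2a3 probe set was above 20.5 on 1 array and was not tested. Its change between the times was -0.03 without the filter. The 3 comparisons share arrays, so they are not independent of each other.

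**Figure D4:**
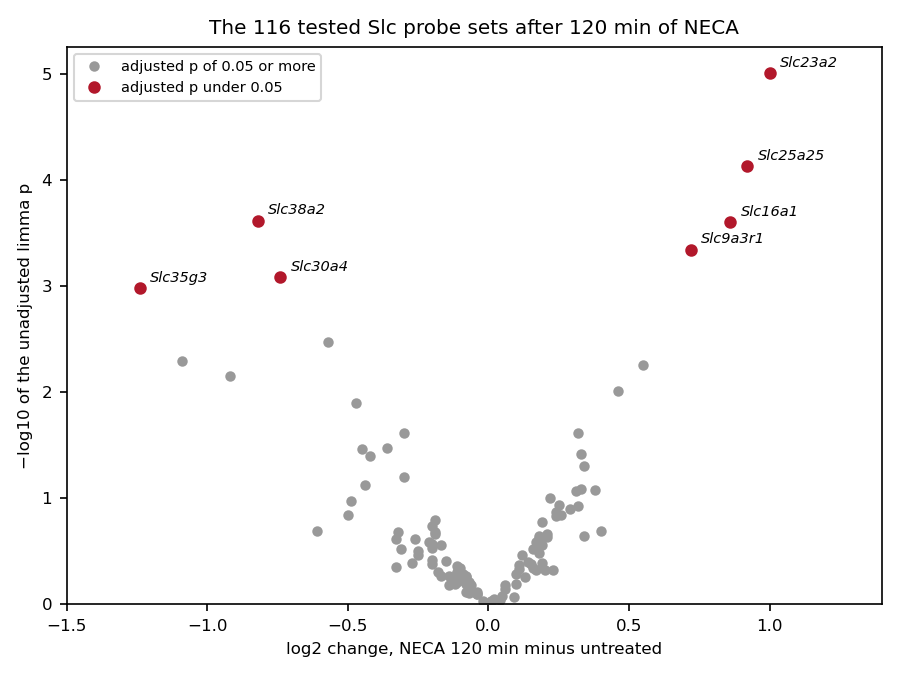
Log2 change at 120 min (horizontal axis) against -log10 of the unadjusted limma p (vertical axis) for the 116 tested Slc probe sets, with those past an adjusted p of 0.05 in red. The 7 red points are Slc23a2, Slc25a25, Slc16a1 and Slc9a3r1 on the right and Slc38a2, Slc30a4 and Slc35g3 on the left, and the other 109 are grey.

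Arrays at 120 min lay wholly above the untreated arrays for 19 of the 116 Slc probe sets and wholly below for 13, which is 16.4% and 11.2%, against 12.3% and 13.0% of all tested probe sets. For 29 Slc genes the array has more than 1 probe set, and 13 genes had more than 1 tested. The signs at 120 min were the same in 4 of these 13 (Slc11a2, Slc30a5, Slc31a1 and Slc6a4) and differed between probe sets in the other 9. No change of these 9 genes passed at 120 min, and whether their probe sets differ was not tested. All 8 called genes had 1 tested probe set.

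Genes of related functions were counted in the same way at 120 min, against the same 1.83% called higher and 1.54% lower among all tested probe sets. Of 18 tested probe sets for ABC transporters, the ATP-driven pumps, 1 fell: Abca1, the cholesterol exporter, changed by -1.20 ± 0.28 (adjusted p 0.0349). Its arrays at 120 min (3.75, 14.1 and 10.7) were all below 20.5, and its second probe set was not tested. Of 17 for partner chains and trafficking factors of carriers, 2 fell and 1 had risen at 30 min. At 30 min 0.357% of all tested probe sets were called higher. Txnip, an arrestin-like protein that lowers glucose carriers at the membrane, changed by -1.62 ± 0.17 (adjusted p 0.000134). The second Txnip probe set was at -0.22. Sgk1, a kinase that keeps several carriers at the membrane, changed by 0.91 ± 0.13 at 30 min (adjusted p 0.00939) and by -1.20 ± 0.13 at 120 min (0.000231). None passed at 120 min among 6 probe sets for sodium and calcium pump subunits, 2 for aquaporins and 1 for organic anion transporting polypeptides.

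Among 25 tested probe sets for the amino acid response and ATF4 targets, 1 rose and 4 fell at 120 min, where 1.83% and 1.54% of all tested probe sets were called. Gadd45a changed by -1.79 ± 0.13 (adjusted p 5.10e-06), Trib3 by -1.24 ± 0.14 (0.00027), and Herpud1 by -1.21 ± 0.14 (0.000266). Ddit3, named with its values seen to complete the count, changed by -0.73 ± 0.16 (0.0261). Ddit4, an inhibitor of mTORC1 signalling, rose by 0.90 ± 0.14 (0.0034). The other 20 did not pass, among them Atf4 (-0.42, adjusted p 0.069), Psat1 (-0.01, 0.986) and the brighter Asns probe set (0.08, 0.788). Of the 25 changes 5 were above 0 and 20 below. The list's median was -0.15, against -0.04 over all tested probe sets.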

How the data were processed

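RNA of 9 cultures was measured on 1 array each, 3 untreated, 3 at 30 min and 3 at 120 min of 10 µM NECA. RNA was extracted with TriZol and labelled with biotin after oligo(dT)-primed, T7-linked cDNA synthesis, per the labels' protocols. The deposited values are 1 intensity per probe set on a linear scale, made with MAS5 per the submitters' processing notes; the version is not given in the sources used here. Of 12488 probe sets, 66 controls were kept for checks. Genes were named from GEO's platform annotation, which can be old: 10833 probe sets have 1 symbol, 396 several and 1193 none. Of the probe sets with several symbols, 1 had an Slc symbol among them and was not taken. The gene IDs of all 184 Slc probe sets were found in the RefSeq table and no symbol changed.

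Values were turned into log2(signal + 7.93), the offset being the 25th percentile. Probe sets above 20.5 on 3 or more arrays, 7851 in all, were fitted with limma 3.58.1 (lmFit on all 9 arrays, eBayes with an intensity trend) in R 4.3.3. Tests were two-sided, with Benjamini-Hochberg adjustment over 7851 and a threshold of 0.05. An exact permutation test of 3 against 3 arrays cannot go below 0.1 and was not used. The fit was tested on simulated data. Alternatives were offsets of 1 and 16, no filter, a filter at 35.5, quantile normalization, only the compared groups, no trend, the replicate number as a block, leaving out each array, and, chosen after seeing the data, the Gapdh ratio as a covariate.

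The text names Slc genes past the threshold with groups that do not overlap, the 5 with the smallest p in each direction against untreated cells that did not pass, and the brightest member of families without one. Other lists give at most 4 called genes each by smallest p. Ddit3, Cp, Atf4, Psat1, Asns, Slc29a1, Slc2a3 and Slc7a5 were added with their values seen. So were relatives or partners of named genes (such as Slc23a3, Slc16a8, Slc9a8, Slc11a2, Slc31a1, Slc25a4 and Bsg). A gene is represented by its brightest probe set, except Slc25a51 and Slc6a4, which were named through a dimmer one. Other probe sets are named as such. The members, lists and tests were chosen with earlier results of these data known. Motifs were searched with Python 3.11.15 in RefSeq windows of 300 bases.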

Additional observations from a re-analysis of the deposited data

Results flagged for a closer look

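The change after NECA differed between the 2 treatment times by limma's test for 4 Slc genes, 3 higher and 1 lower, where 1.35% of all tested probe sets were called higher and 1.62% lower. From 30 to 120 min the log2 change was 0.84 for Slc16a1, a lactate carrier, 0.77 for Slc23a2, a vitamin C carrier, and 0.71 for Slc39a9, a zinc carrier. It was -0.71 for Slc38a2, an amino acid carrier. All arrays at 120 min lay on one side of all arrays at 30 min for each of the 4. The calls of Slc39a9 and Slc38a2 each ended in 11 of 18 alternatives, that of Slc16a1 in 3 and that of Slc23a2 in 0.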

How the results depend on the processing

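Over 18 alternatives, Slc23a2 was called at 120 min in all, Slc25a25 in 17, Slc38a2 in 16, Slc16a1 in 15, Slc30a4 and Slc9a3r1 in 12 and Slc35g3 in 9, and no called change turned direction. The number of Slc probe sets higher at 30 min was 1, with 0 for only the compared groups, 0 with the Gapdh ratio as a covariate and 0 to 1 when 1 array was left out. At 120 min 4 were higher and 3 lower, with 1 and 1 with that covariate, and 2 to 4 and 0 to 3 when 1 array was left out. Slc22a23 was also called higher at 120 min after quantile normalization and without the intensity trend. Against 30 min 3 were higher, or 1 to 4 when 1 array was left out, and 1 was lower, with 0 with no filter, 0 for only the compared groups, 0 with no trend, 0 with the covariate and 0 to 1 when 1 array was left out. Slc39a9 was not called there with no filter (limma adjusted p 0.0831) or for only the compared groups (0.0919). With the covariate, Slc6a18 (1.39, adjusted p 0.0199) was called higher there in place of Slc39a9 (0.113). The cause was not tested.

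Changes near 0 that turned sign were Slc16a1 at 30 min (-0.18 with the covariate, -0.10 without untreated replicate 2, -0.06 without NECA 30 min replicate 2, up to 0.13 without another array), Slc38a2 at 30 min (-0.26 to 0.02 when 1 array was left out), Slc30a4 at 30 min (-0.21 to 0.08 when 1 array was left out) and Slc48a1 at 120 min (0.00 without untreated replicate 3, 0.06 without NECA 120 min replicate 2).

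Over all tested probe sets, 28 were higher at 30 min, against 4 with the covariate and 15 without untreated replicate 2, and 0 lower, against 46 without NECA 30 min replicate 2, 2 with no filter and 1 in 4 other alternatives. The 369 lower at an unadjusted p under 0.05 at 30 min were not called by limma. At 120 min 144 were higher, against 87 with the covariate and 88 without untreated replicate 2 or NECA 120 min replicate 3, and 121 lower, against 64 with the covariate, 60 without untreated replicate 1, 70 without untreated replicate 2 and 79 without NECA 120 min replicate 3. Between the times 106 were higher, against 178 without NECA 30 min replicate 2 and 66, 60 and 59 without NECA 120 min replicates 1, 2 and 3.

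With the replicate block, 1 Slc probe set was higher at 30 min, 4 higher and 3 lower at 120 min, and 3 higher and 1 lower between the times. The equal counts hold different genes: between the times Slc2a3 (adjusted p 0.0256) was called in place of Slc39a9 (0.0652), and Slc30a4 (0.0277) in place of Slc38a2 (0.0602). Same-numbered arrays correlated at -0.17 to 0.23 in their deviations from the group means, with 1 of 9 pairs over 0.1, so the numbers were not taken to pair the arrays. Signals near or below 20.5 limit what could be tested for 68 Slc probe sets.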
